A study of Mus musculus with 14 samples.

Results

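The flavin-containing monooxygenases were followed in the liver as 4 genes, Fmo1, Fmo2, Fmo4 and Fmo5, picked by symbol from the 17552 genes of the expression table. The RNA came from livers of male, homozygous Apoe-deficient mice, of C57BL/6 strain by the labels and of C57BL/6J background by the methods of the study. All of them received a Western diet, with nothing added in the control group and with erythrodiol, a pentacyclic triterpene alcohol of olives, in the other at 10 mg/kg. The labels give an age of 8 weeks and 8 weeks of feeding, whereas the methods of the study give a longer feeding period. Each group was sequenced as 7 libraries, each from pooled liver RNA of a few mice, and the expression table holds 1 sum over the 7 libraries per gene and group. Differences between groups therefore have no replicate check, and the 95% intervals given below cover counting error only.

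Flavin-containing monooxygenases are enzymes of the endoplasmic reticulum that hold FAD, take electrons from NADPH and add 1 oxygen atom of O2 to soft nucleophiles, mainly nitrogen and sulfur atoms of amines, thiols and sulfides. Fmo1 has a broad range of such substrates and also turns hypotaurine into taurine. Fmo5 differs from the rest in that it acts as a Baeyer-Villiger enzyme, placing oxygen next to a carbonyl group. Fmo2 is best known as the lung form, and Fmo4 is the least characterised.

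Members of the family carry a glycine-rich stretch at the start of the protein, which binds FAD, and another one further on, which binds NADPH. The first 60 coding bases of each gene are shown because they hold the FAD stretch, with its glycine codons at the first, the third and the sixth place in capitals. The sequences are 5′ to 3′ on the coding strand, from GENCODE M21 transcripts, with positions in GRCm38.
Fmo1, chr1:162859497-162859556, minus strand: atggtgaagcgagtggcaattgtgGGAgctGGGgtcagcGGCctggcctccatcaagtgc
Fmo2, chr1:162898246-162898305, minus strand: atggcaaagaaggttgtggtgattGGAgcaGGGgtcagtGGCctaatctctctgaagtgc
Fmo4, chr1:162809862-162809921, minus strand: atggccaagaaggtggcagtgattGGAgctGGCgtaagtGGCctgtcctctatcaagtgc
Fmo5, chr3:97629061-97629120, plus strand: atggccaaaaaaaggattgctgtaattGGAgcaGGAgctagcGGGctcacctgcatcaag

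The stretch that binds NADPH lay in coding exon 4 of 8 in all 4 genes, at codons 191 to 196 in Fmo1, Fmo2 and Fmo4 and at codons 192 to 197 in Fmo5. It is shown with 4 codons on either side, and capitals mark the glycine codons at the first, the third and, where it is one, the sixth place.
Fmo1, chr1:162839645-162839686, minus strand: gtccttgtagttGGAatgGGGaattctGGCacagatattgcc
Fmo2, chr1:162886336-162886377, minus strand: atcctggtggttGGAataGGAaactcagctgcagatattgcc
Fmo4, chr1:162805181-162805222, minus strand: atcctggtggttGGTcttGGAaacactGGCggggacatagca
Fmo5, chr3:97638934-97638975, plus strand: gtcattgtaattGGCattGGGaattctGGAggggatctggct

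The coding sequences were 1599 bases long in Fmo1, 1608 in Fmo2, 1683 in Fmo4 and 1602 in Fmo5. Aligned over their whole length, the 6 pairs of genes shared between 57.5% and 61.8% of their coding bases. The longest run of bases that any annotated transcripts of a pair had in common was 12 to 24 bases, shorter than the 100-base reads. Fmo4, Fmo1 and Fmo2 lie next to each other on the minus strand of chromosome 1, at chr1:162793188-162816072, chr1:162829561-162866610 and chr1:162874317-162898758. Fmo5 stands apart on the plus strand at chr3:97609938-97655287, and its annotated 5′ end overlaps 285 bases of Chd1l, a chromatin remodeller on the other strand. Chd1l had 1396 counts in the control and 1498 in the erythrodiol sum, and whether the libraries kept the strand is not given in the sources used here.

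Fmo5 was the main flavin monooxygenase of these livers. It had 77064 counts in the control and 96798 in the erythrodiol sum. As counts per kb of gene length per 1000000 counts of the group, its level was 200.5 and 248.3, which placed it 389th and 273rd of all genes by level. Fmo1 followed with 23725 and 30099 counts and a level per length of 82.3 and 102.9. Both genes were thus higher in the erythrodiol sum, and Fmo5 was 2.44-fold above Fmo1 in the control and 2.41-fold in the erythrodiol sum.

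Fmo4 and Fmo2 were expressed far below these. Fmo4 had 1269 and 1576 counts and a level per length of 3.96 and 4.84. Fmo2 had 1823 and 2227 counts and a lower level of 3.60 and 4.34, since its length in the expression table, 4118 bases, was the greatest of the 4. The lengths used here are those of the expression table and not the spans on the chromosome. Fmo1 was 20.8-fold above Fmo4 in the control. Fmo4 was 1.10-fold above Fmo2 there, with a counting interval from 1.02 to 1.18, so that these neighbours in the order were separated by little more than counting error. The order was the same in both groups. Of the level summed over the 4 genes, 69.1% came from Fmo5 in the control and 68.9% in the erythrodiol sum. Fmo1 gave 28.3% and 28.6%, Fmo4 gave 1.36% and 1.34%, and Fmo2 gave 1.24% and 1.20%.

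**Figure D1:**
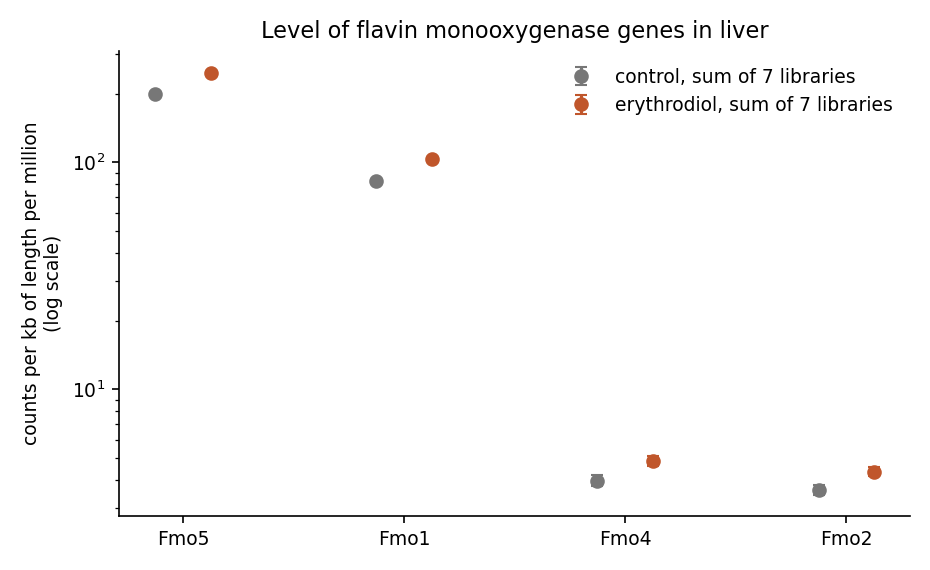
Level of each flavin monooxygenase gene, in counts per kb of length per 1000000 counts on a log axis, in the control and the erythrodiol sum of 7 libraries; bars are 95% Poisson counting intervals. Fmo5 and Fmo1 stand well above Fmo4 and Fmo2, and each gene is higher in the erythrodiol sum.

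All 4 genes had more counts in proportion to the total in the erythrodiol sum, and by much the same amount. Scaled by the column totals, Fmo1 was 25% higher with erythrodiol, a log2 ratio of 0.32 with an interval from 0.30 to 0.35. Fmo5 was 24% higher, a log2 ratio of 0.31 with an interval from 0.29 to 0.32. For Fmo4 the difference was 22%, or 0.29 on the log2 scale, with an interval from 0.18 to 0.40. For Fmo2 it was 20%, or 0.27, with an interval from 0.18 to 0.36. The log2 ratios of the 4 genes thus spanned 0.05. In all 6 pairs of members, the interval of the difference between their log2 ratios included 0. The narrowest was that of Fmo1 against Fmo5, from -0.01 to 0.04, and the widest that of Fmo2 against Fmo4, from -0.16 to 0.12. Taken as 1 sum, the members went from 103881 to 130700 counts, or from 845.3 to 1048.2 per 1000000 counts.

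None of the 4 genes was past 2-fold in either direction. Among the 13291 genes whose counts in both groups came to 100 or more, 0.218% were more than 2-fold higher and 0.549% more than 2-fold lower. A smaller limit of 25% higher or 20% lower, the same distance from 0 on the log2 scale, was passed upward by 1 of the 4, Fmo1, and downward by 0. Of all genes, 24.4% passed it upward and 8.89% downward. That Fmo1 passed and Fmo5 did not rests on a difference in log2 ratio of 0.01, which is within counting error.

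The ratios have to be read against a background that itself leaned upward. The median gene had a log2 ratio of 0.16, and 71.2% of genes were above their control by some amount. The quartiles of all genes were -0.04 and 0.32, so that the members lay near the upper quartile. Of all genes, 75.7% had a lower ratio than Fmo1, 73.5% than Fmo5, 70.8% than Fmo4 and 67.1% than Fmo2.

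The ratio also moved with gene length. The median log2 ratio was -0.18 in the shortest 10% of genes and 0.33 in the longest 10%. Each member was therefore set against the genes within 10% of its own length. Fmo1, with 2346 bases, was 0.19 above the median of 1481 such genes and higher than 83.0% of them. Fmo4, with 2610 bases, was 0.14 above its median and higher than 75.3%. Fmo5, with 3127 bases, was 0.12 above and higher than 73.3%. Fmo2, with 4118 bases, was only 0.03 above the median of its 1518 genes and higher than 56.8% of them, and its counting interval held that median. Relative to like length, Fmo1 and Fmo2 thus differed by 0.16, where before they had differed by 0.05.

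**Figure D2:**
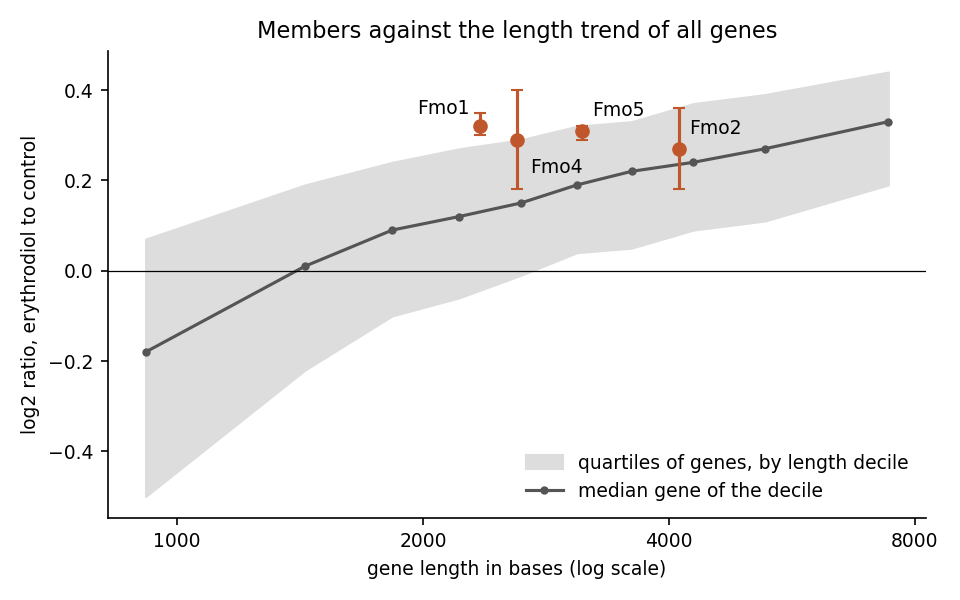
Log2 ratio of erythrodiol to control against gene length on a log axis. The line gives the median gene of each length decile, the band the quartiles, and the points the 4 members with 95% counting intervals; Fmo2 lies next to the line and Fmo1 above the band.

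Another scaling of the whole table shifted all members alike and made their ratios smaller. With the median ratio of all genes set to no change, the log2 ratios were 0.16 for Fmo1, 0.15 for Fmo5, 0.13 for Fmo4 and 0.11 for Fmo2. A trimmed mean of log ratios gave 0.17, 0.15, 0.14 and 0.11 in the same order. Among genes of like length and also like count, the members were higher than 86.1%, 78.1%, 75.2% and 50.4% of the genes, again in that order, with as few as 32 genes to compare for the abundant Fmo5.

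**Figure D3:**
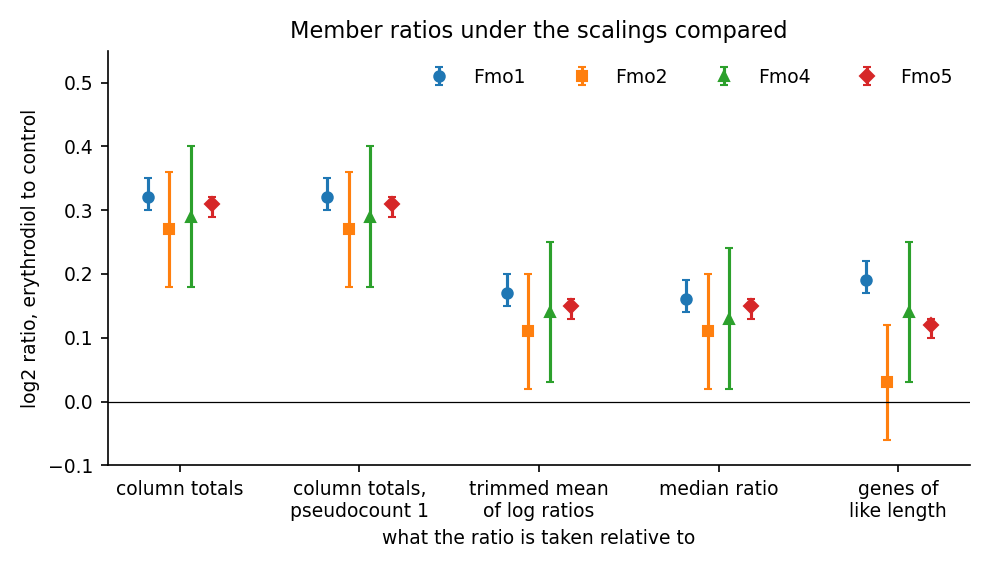
Log2 ratio of erythrodiol to control of the 4 members, by what the ratio was taken relative to; bars are 95% counting intervals, with the reference taken as known. All values lie above 0, and only the interval of Fmo2 against genes of like length holds 0.

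The enzymes that provide the cofactors of these monooxygenases, and those that act beside them, were taken as 6 lists. Of 44 such genes in the table, all with at least 100 counts, 8 passed the same limit upward, or 18.2%, and 2 downward, or 4.55%. With the median ratio of all genes set to no change the numbers were 2 and 6, and relative to genes of like length 1 and 1, so that the balance between the directions depended on the scaling. Their median log2 ratio was 0.18, and relative to genes of like length it was 0.03.

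NADPH is the electron source of the family. Of 6 genes of the pathways that make it, Me1, the cytosolic malic enzyme, had the highest log2 ratio, 0.47, from 26258 to 36789 counts. Idh1, the cytosolic isocitrate dehydrogenase, had the lowest, -0.18, from 49305 to 44237 counts. The median of this list was 0.08, below that of all genes, but relative to genes of like length it was 0.05. H6pd makes NADPH inside the endoplasmic reticulum. It had 58679 and 72935 counts and a log2 ratio of 0.29, and was the gene of these lists nearest to Fmo4.

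The 5 genes that import riboflavin or make and carry FAD had a median log2 ratio of 0.21, and none was more than 25% higher. Slc25a32, the mitochondrial carrier of FAD and folate, was highest at 0.31. Slc52a3, a riboflavin carrier, was lowest at -0.41 with 72 and 55 counts, and its interval from -0.94 to 0.12 held 0.

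Of the 6 lists, the 5 genes of microsomal and related electron transfer had the widest spread. Por, the reductase that passes NADPH electrons to cytochromes P450, went from 23187 to 36205 counts, a log2 ratio of 0.62 and 0.47 above genes of like length. Cyb5a, cytochrome b5, went from 134027 to 90395 counts, a log2 ratio of -0.59. Its length in the expression table is short, 741 bases, and relative to genes of like length its ratio was -0.31. Scaled by the column totals, Por, Cyb5b at 0.39 and Cyb5r3 at 0.34 exceeded each flavin monooxygenase in ratio. Pgrmc1 lay below them at 0.07, and Cyb5a went the opposite way. Relative to genes of like length Cyb5b was at 0.15 and Cyb5r3 at 0.22, where Fmo1 was at 0.19. The median of the list was 0.34, and 0.15 relative to genes of like length.

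Among 11 other oxidases and dehydrogenases of amines, aldehydes, sulfite and organic acids, the median was 0.22. Aox1, an aldehyde oxidase, was highest at 0.44 and Hao1, hydroxyacid oxidase, was lowest at -0.19. Aox3, the aldehyde oxidase with 85026 and 103458 counts, was nearest to Fmo2 with a log2 ratio of 0.26. Dao was not analysed here.

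The 9 reductases that use flavins, or that take oxygen back from sulfur and nitrogen, were the list furthest below the members. Their median log2 ratio was -0.10, and -0.11 relative to genes of like length. Of the 9, 3 were above the control, against 71.2% of all genes. The limit of 25% higher or 20% lower was passed by 0, where 24.4% of all genes passed it upward and 8.89% downward. Txnrd1, a thioredoxin reductase, was highest at 0.31 and was the gene nearest to Fmo5. Nqo1, a quinone reductase, was lowest at -0.23 with 902 and 783 counts. Msra, which reduces methionine sulfoxide, had 19901 and 18850 counts and a log2 ratio of -0.10.

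Scaled by the column totals, 8 of 8 transcription factors that act on drug-metabolising genes of liver were above the control, as were 71.2% of all genes. Their median log2 ratio was 0.29, and 0.09 relative to genes of like length, where Hnf4a and Nr1i2 were below the reference at -0.03 and -0.05. Ppara, the receptor for fatty acids, was highest at 0.51 and Nr1i2, the pregnane X receptor, was lowest at 0.09. Ahr, the aryl hydrocarbon receptor, was the gene nearest to Fmo1 with a log2 ratio of 0.32. Each of these likenesses rests on 1 ratio per gene, the nearest of 44. Relative to genes of like length Ahr was at 0.04 where Fmo1 was at 0.19, and H6pd at 0.04 where Fmo4 was at 0.14. The others stayed close, with Txnrd1 at 0.10 and Fmo5 at 0.12, and Aox3 at 0.02 and Fmo2 at 0.03.

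**Figure D4:**
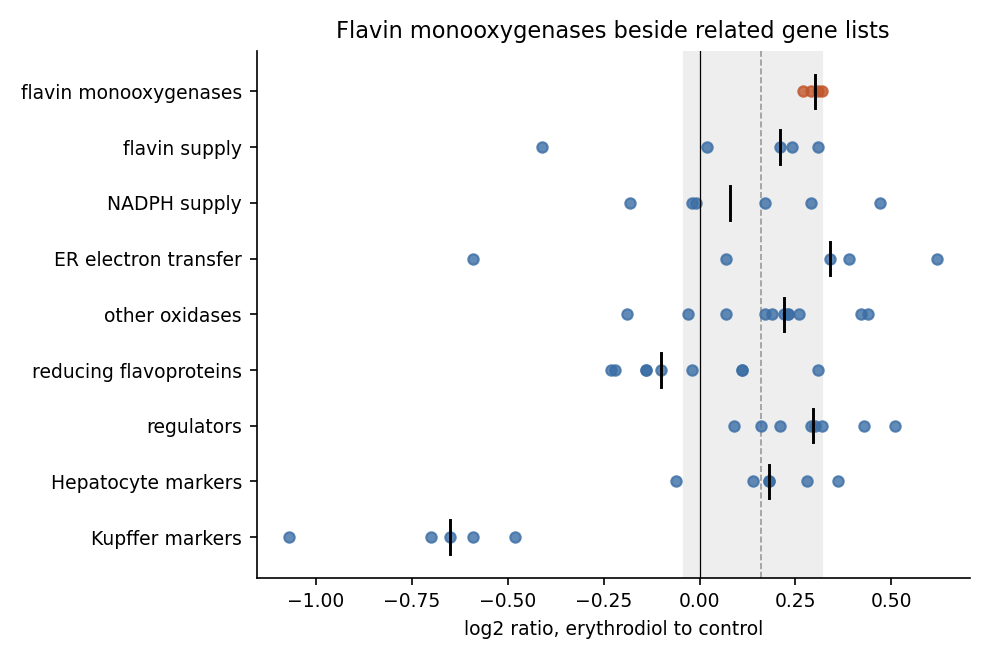
Log2 ratio of erythrodiol to control of each gene with at least 100 counts, by list; black bars are list medians, the grey band the quartiles of all genes and the dashed line their median. The 4 flavin monooxygenases lie between 0.27 and 0.32, the reductases mostly below 0, and the 5 Kupffer cell markers between -1.07 and -0.48.

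The 10 nearest genes outside the family around the chromosome 1 cluster, 5 on each side, had ratios on both sides of 0. These genes lay between 52628 and 1047235 bases from the cluster. Of the 9 with at least 100 counts, 6 were above the control, where 71.2% of all genes were. The median log2 ratio of the 9 was 0.03, against 0.16 for all genes. Prrc2c, on the side of Fmo4, was highest at 0.53. Gorab, on the other side, was lowest at -0.11.

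The authors also deposited new coding transcripts, assembled from all libraries together, so that no group can be read from them. Fmo4 and Fmo5 had 3 each, and Fmo1 and Fmo2 had 0. Of the 13291 genes, 35.8% had at least 1 new transcript and 9.14% at least 3. Reads had been counted against the annotated and the new transcripts merged, so that the counts of Fmo4 and Fmo5 include both.

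All 3 new transcripts of Fmo4 left out coding exon 4, a stretch of 143 bases at chr1:162805154-162805296 on the minus strand. It is shown because it holds the stretch that binds NADPH, with the glycine codons in capitals.
Fmo4 coding exon 4: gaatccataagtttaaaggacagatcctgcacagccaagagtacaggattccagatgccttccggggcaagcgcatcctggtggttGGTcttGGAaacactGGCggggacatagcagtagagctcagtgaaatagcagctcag
Its length is not a whole number of codons. When it was taken out of the annotated coding sequence of 560 codons, the reading frame from the annotated start met a stop after 166 codons, 161 of which come before the exon. The FAD stretch at codons 9 to 14 stays in such a reading frame, and the NADPH stretch does not. Whether a protein is made from these transcripts was not measured. The transcripts differed from each other at the 5′ end, where 1 had an added exon of 91 bases and another began with an exon of 66 bases that is not annotated in GENCODE.

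All 3 new transcripts of Fmo5 began with the same exon of 88 bases, 18619 bases upstream of the first base that GENCODE gives the gene but within the gene as RefSeq places it. This exon overlapped the first 19 bases of Chd1l as GENCODE places it. They differed further on. One ended in a new last exon of 2268 bases and lacked the last 2 of 8 coding exons. Another carried an exon of 93 bases after the first coding exon. Its length is a whole number of codons, but its sequence was not held and a stop codon within it could not be looked for. The remaining one carried after the first coding exon an exon of 157 bases, chr3:97629572-97629728 on the plus strand, known from an annotated transcript with no coding sequence. It is shown because it ends the reading frame that starts at the annotated start of Fmo5, with the stop codon in capitals.
Fmo5 added exon: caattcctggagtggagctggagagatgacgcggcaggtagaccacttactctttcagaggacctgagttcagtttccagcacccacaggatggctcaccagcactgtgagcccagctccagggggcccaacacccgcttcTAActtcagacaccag
With this exon the reading frame held 92 codons, against 533 in the annotated sequence. The exon that holds the NADPH stretch of Fmo5 was present in all 3 new transcripts. In the transcript with the 157-base exon, however, the reading frame ended before that stretch, which is at codons 192 to 197 of the annotated sequence. Whether the transcript with the 93-base exon keeps the stretch in frame could not be determined.

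**Figure D5:**
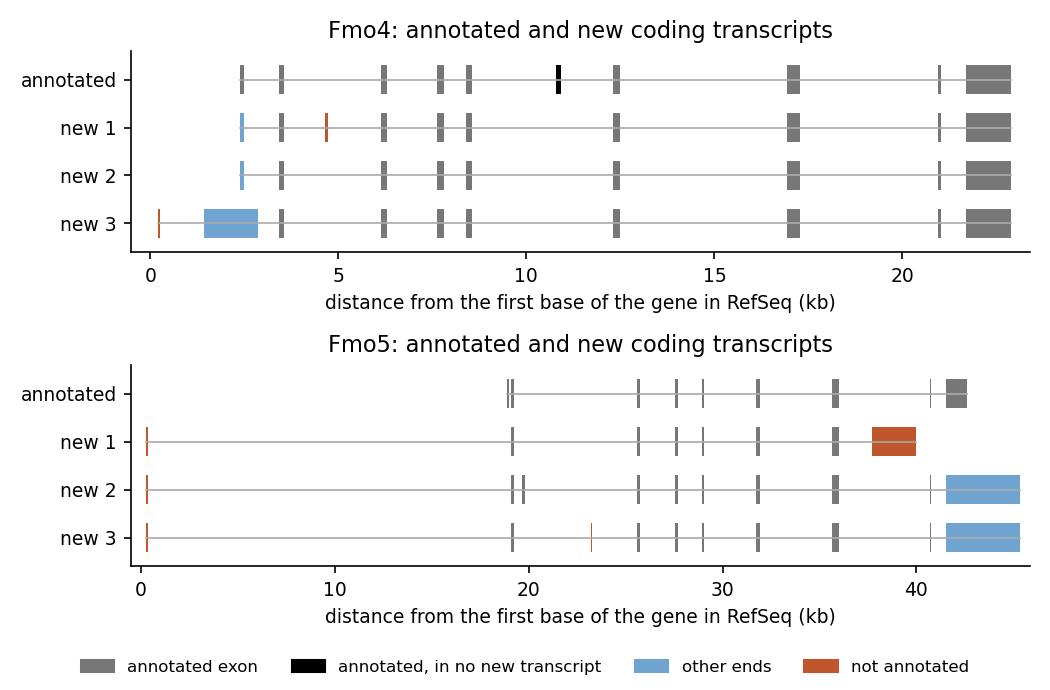
Exons of an annotated transcript and of the 3 new coding transcripts of Fmo4 (top) and Fmo5 (bottom), by distance in kb from the first base that RefSeq gives the gene. The 143-base exon in black is in none of the 3 new Fmo4 transcripts, and the 3 new Fmo5 transcripts share a first exon near the RefSeq start of the gene, far before the first exon of the GENCODE transcript drawn.

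The libraries had 34856340 to 55244294 clean reads in the control group and 47669656 to 48058606 in the erythrodiol group. Of these, 64.33% to 81.43% and 72.96% to 76.13% mapped to genes, and 1 control library made up 9.12% of its group's mapped pairs where the others made up 13.0% to 17.3%. The gene counts summed to 122889032 and 124686047. Apoe, the gene disrupted in all animals, still had 9403 and 8293 counts. Which part of the gene they cover was not analysed here, so that they do not check the genotype. Among cell type markers, all 5 Kupffer cell markers were more than 20% lower, and their summed level went from 407.9 to 251.8. That of 6 hepatocyte markers went from 55425.2 to 56055.0. Albumin, Alb, made up most of this sum and had a log2 ratio of -0.06, and the other 5 lay between 0.14 and 0.36, with a median of the list of 0.18. The summed levels were 55.8 and 51.9 for 5 endothelial markers, 182.1 and 167.4 for 5 stellate cell markers, 5.94 and 4.43 for 5 cholangiocyte markers, 16.9 and 11.4 for 5 leukocyte markers and 1.22 and 1.43 for 5 pancreas markers. Among the leukocyte markers, S100a8 of neutrophils went from a level of 8.53 to 3.74 and Ptprc from 5.38 to 4.47, while Cd3e, Cd79a and Nkg7 had log2 ratios of 0.18, 0.03 and 0.11. Among the pancreas markers, Cpa1 had 2 and 15 counts, Ctrb1 8 and 42, and Prss2 15 and 8. No marker was at 0 in either group. The part of cell composition in the ratios of the monooxygenases was not tested, and in bulk RNA fewer cells of a type and less RNA per cell cannot be told apart.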

How the data were processed

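Poly-A RNA libraries were read as paired ends of 100 bases by the authors. Per the labels and methods they used HISAT, StringTie, Cufflinks, GATK, Bowtie2 and RSEM, with versions not given in the sources used here. The deposited gene values are expected counts by RSEM, summed by the authors over 7 libraries per group. The sums differed from the mapped pairs of those libraries by at most 0.00326%. The deposited table also holds the authors' own log2 ratios, p and q values, which were not used. Depth came from the deposited counts of clean reads and percent mapped to genes, and new transcripts from a deposited annotation on GRCm38.

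Values were divided by column totals, without a test. Exact Clopper-Pearson intervals (95%, counts rounded) cover the share of a gene's counts in the erythrodiol sum, and Wald intervals on log counts the differences between genes. The code was tested on simulated data. References were genes with at least 100 counts, or those within 10% in length. Of each list, the genes of highest and lowest ratio and those nearest to a member were named, and likewise those around the chromosome 1 cluster; Msra, Chd1l and the genes around Fmo5 were added after their values were seen. Mtarc1, Mtarc2 and Tf were matched by gene ID. Some results are not reported here. Members and lists were chosen with earlier results of these data known. Python 3.11.15, scipy 1.17.1, pandas 2.3.3 and Biopython 1.88 were used. Alternatives were another scaling, pseudocount, fold, count minimum and length window.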

Additional observations from a re-analysis of the deposited data

Results flagged for a closer look

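In the control group, replicate 3 had 64.33% of its clean reads mapped to genes, and its gap to the next library was 0.588 of the whole range of the 7 libraries, above the limit of 0.568 for a single library standing apart. Chance flags about 1 in 20 sets of values, and both the clean reads and the percent mapped were checked in each group. This library gave 9.12% of all mapped pairs of the control group, and its share of the counts of each monooxygenase is not known. Gene counts were summed over libraries, so the ratios of Fmo1, Fmo2, Fmo4 and Fmo5 without it were not computed.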

How the results depend on the processing

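Of 43 alternative values, 25 stayed within counting error of the reported ones and 0 took the opposite sign, while 18 moved. A count of genes has no sign, so a change in the balance between higher and lower genes was recorded only as moved. Scaling by the median ratio gave log2 ratios of 0.16 for Fmo1, 0.11 for Fmo2, 0.13 for Fmo4 and 0.15 for Fmo5, and a trimmed mean of log ratios gave 0.17, 0.11, 0.14 and 0.15. Relative to genes of like length they were 0.19, 0.03, 0.14 and 0.12. With like count required as well, Fmo1 was 0.13 and Fmo5 0.14 above the median, and Fmo2 0.00. Of the 44 related genes, 8 were more than 25% higher and 2 more than 20% lower; the numbers were 2 and 6 by the median ratio and 1 and 1 relative to like length. The reference itself moves in each case, by the construction of the alternative. A pseudocount of 1, a length window of 25%, the 200 genes nearest in length, a minimum of 10 counts, a limit of 1.5-fold and lengths less 100 bases moved no value beyond counting error.

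No paired analysis was possible because gene counts were held only as 1 sum per group. For the same reason the fits of single libraries, with another tool, with a replicate block or without a count filter, and the omission of single libraries were not run. Depth limits Fmo2 and Fmo4 most, which had the widest counting intervals.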

Other observations

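Around Fmo5 on chromosome 3, 8 of the 10 nearest genes of the table had at least 100 counts, and their median log2 ratio was 0.26, against 0.31 for Fmo5. Pde4dip, which encodes a protein bound to a phosphodiesterase, was highest at 0.45, and Sec22b, a vesicle fusion protein, was lowest at -0.15. Prkab2, a subunit of the AMP-activated kinase whose gene begins 2924 bases beyond Fmo5, had 624 and 750 counts and a log2 ratio of 0.24.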
